A study of Homo sapiens with 24 samples.

Results

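Positions precipitated by an antibody to the MYC tag were compared between parental HCC827 cells that express METTL7A fused to MYC and FLAG tags and parental wild-type HCC827 cells, which carry no fusion. HCC827 is a human lung adenocarcinoma line known for a mutated and amplified EGFR gene. All peaks of the METTL7A MYC-tag list (2271) and all peaks of the wild-type MYC-tag list (1005) were taken, which makes 3276 of the 13347 peaks in the 8 lists of the series. Each list combines 2 samples that the labels call biological replicates, so the comparison rests on 4 of the 24 samples, all untreated. The other 6 lists cover IgG, an isotype control antibody, in both parental lines, and both antibodies in osimertinib-resistant METTL7A-expressing and wild-type cells grown in 1 µM of that EGFR inhibitor. Whether the line is 1 clone, and which promoter drives the fusion, is not given in the sources used here.

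METTL7A, renamed TMT1A in the current gene table, is a methyltransferase-like protein anchored in membranes of the endoplasmic reticulum and of lipid droplets. The tag is copied from part of human MYC, a transcription factor that binds gene starts through the E-box, so an antibody to the tag can also meet MYC itself in wild-type cells. In ChIP-seq a peak is a stretch of genome with more reads than its surroundings. Its height here is the −log10 p-value of the authors' peak caller, given as the lower of the 2 replicates, and the irreproducible discovery rate (IDR) measures how well the replicates rank it alike. Peaks whose global IDR is at most 0.05 are called reproducible.

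The 2 lists have no replicate error of their own, because each is already a combination of its replicates, and no test was run between them. Shares carry exact Clopper-Pearson 95% intervals, which cover counting error only and treat neighbouring peaks as independent, which they are not. Heights describe peaks within a list, and heights of 2 lists set side by side below share no common scale. The depth of the libraries is unknown from the files, and list length varies with depth and enrichment. Across all 8 lists, 70 to 3165 peaks were present, and the 2 METTL7A IgG lists were the shortest, with 70 and 96 peaks. The tissue label could not be checked against marker genes, since peak lists hold no expression values.

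The METTL7A list held 2265 nuclear and 6 mitochondrial peaks, against 1005 nuclear and 0 mitochondrial peaks in the wild-type list. Nuclear peaks were 2.25 times as many in the METTL7A list. At a height of 5 or more there were 834 METTL7A peaks against 242 wild-type peaks, and at 9 or more 127 against 27. Reproducible nuclear peaks numbered 139 in the METTL7A list (6.14% of its nuclear peaks) and 26 in the wild-type list (2.59%). The median height was 4.76 in METTL7A cells and 4.40 in wild-type cells, and the highest nuclear peak reached 24.2 in METTL7A cells and 15.6 in wild-type cells. METTL7A peaks covered 1851 kb and wild-type peaks 743 kb.

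Few positions were in both lists. Of the METTL7A nuclear peaks 150 (6.62%, 95% interval 5.63 to 7.73) overlapped a wild-type peak, and of the wild-type peaks 167 (16.6%, 14.4 to 19.1) overlapped a METTL7A peak. This left 2115 METTL7A peaks with no wild-type partner and 838 wild-type peaks with no METTL7A partner. The highest nuclear peak of each list was unshared, but by median the shared peaks were higher on both sides. Their median height was 7.93 in the METTL7A list, where unshared peaks had a median of 4.71, and 5.62 in the wild-type list, where unshared peaks had a median of 4.27. Of the shared METTL7A peaks 53.3% lay in the EGFR region described below, against 4.02% of the unshared ones. In the wild-type list these shares were 57.5% and 3.82%. Outside that region the medians were 5.71 for shared and 4.65 for unshared METTL7A peaks. For wild-type peaks outside it they were 4.71 and 4.22. Shared peaks were also wider. Their median width was 1056 bp against 678 bp for unshared METTL7A peaks, and 776 bp against 620 bp for unshared wild-type peaks. The 150 and 167 shared peaks formed 172 overlapping pairs with a median overlap of 648 bp, and in 10 pairs both peaks were reproducible.

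**Figure D1:**
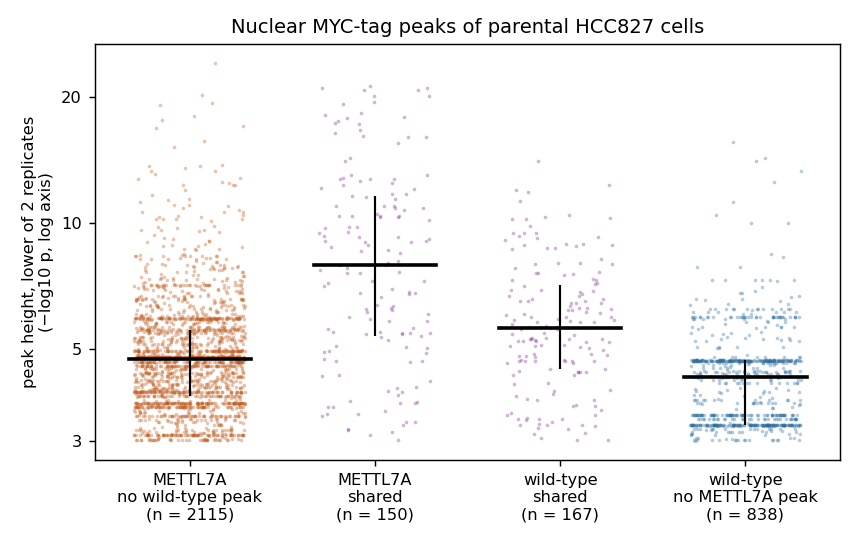
Height of each nuclear MYC-tag peak (vertical log axis, −log10 p, lower of 2 replicates), with 1 point per peak, a horizontal bar for the median and a vertical line from the lower to the upper quartile. Shared METTL7A peaks have a median of 7.93, above the 4.71 of METTL7A peaks with no wild-type partner, and shared wild-type peaks have a median of 5.62, above the 4.27 of unshared wild-type peaks.

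Shared peaks were most frequent around EGFR, the receptor tyrosine kinase gene on the short arm of chromosome 7, where peaks of both lists are dense. At 54 to 56 Mb of chromosome 7 (GRCh37) lay, with the genes VSTM2A, SEC61G, LANCL2 and VOPP1, 165 METTL7A peaks (7.28% of the list, 6.25 to 8.43) and 128 wild-type peaks (12.7%, 10.7 to 15). Of these, 80 of 165 METTL7A peaks (48.5%, 40.6 to 56.4) and 96 of 128 wild-type peaks (75%, 66.6 to 82.2) overlapped a peak of the other list. On the other chromosomes 63 of 1937 METTL7A peaks (3.25%, 2.51 to 4.14) and 63 of 811 wild-type peaks (7.77%, 6.02 to 9.83) did so. On the rest of chromosome 7 the counts were 7 of 163 METTL7A peaks (4.29%, 1.74 to 8.65) and 8 of 66 wild-type peaks (12.1%, 5.38 to 22.5). Among reproducible peaks the region held 89 of 139 in the METTL7A list (64.0%, 55.5 to 72.0) and 18 of 26 in the wild-type list (69.2%, 48.2 to 85.7), and these intervals overlap. The parental IgG lists also placed peaks there, with 4 of 53 reproducible peaks in METTL7A cells (7.55%, 2.09 to 18.2) and 16 of 31 in wild-type cells (51.6%, 33.1 to 69.8). The copy number of the region was not measured here, and its part in these counts was not tested.

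**Figure D2:**
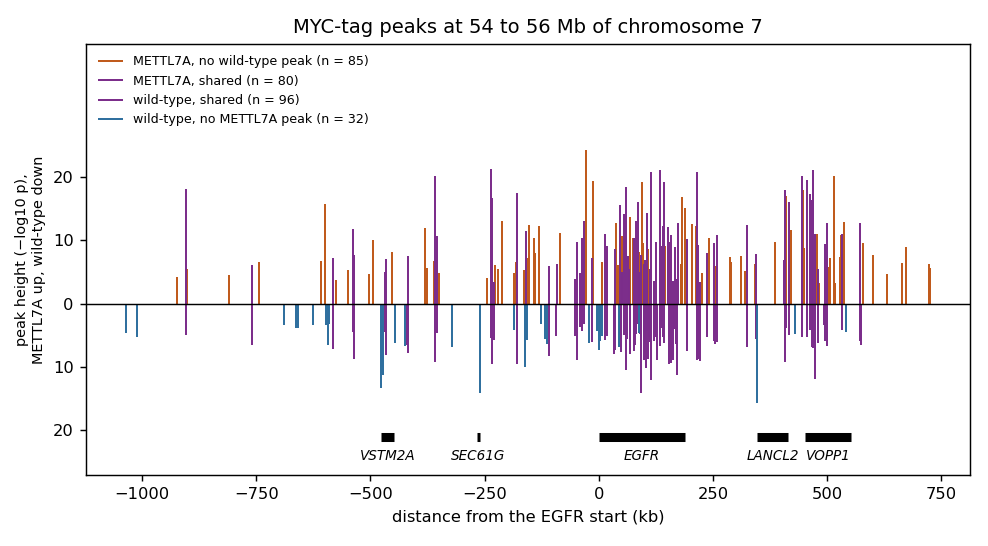
MYC-tag peaks at 54 to 56 Mb of chromosome 7 by distance of the peak centre from the EGFR start (horizontal axis, kb), with METTL7A heights drawn upward and wild-type heights downward (−log10 p), shared peaks in purple and genes as black bars. METTL7A peaks reach 24.2 and wild-type peaks 15.6, and the wild-type bars without a METTL7A partner at the VSTM2A, SEC61G and LANCL2 starts are among the tallest on that side.

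Inside EGFR itself both lists held 49 peaks. In the METTL7A list 34 of the 49 overlapped a wild-type peak (69.4%), and in the wild-type list 44 of the 49 overlapped a METTL7A peak (89.8%). The METTL7A peaks covered 75.8 kb of the gene (40.2%) at a median height of 9.56, and the wild-type peaks 55.3 kb (29.4%) at a median height of 6.27. Of the METTL7A peaks 34 were reproducible and 30 had a height of 9 or more, against 6 and 8 of the wild-type peaks. Equal numbers of peaks in the gene thus covered more of it in the METTL7A list. The first METTL7A peak in the gene began 6.11 kb after its start, whereas the first wild-type peak began 1.40 kb before it.

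The 10 tallest shared METTL7A peaks all lay in this region. The highest, at chr7:54849558-54850816, between SEC61G and EGFR, had heights of 21.3 and 21.4 in the 2 METTL7A replicates, and its wild-type partner had 5.41 and 15.8. A second, inside EGFR at chr7:55221527-55222282, had 21.1 and 24.6 in METTL7A cells against 3.14 and 10.1 in wild-type cells. At both positions the METTL7A values and the wild-type values did not overlap, but the positions were taken from the top of the METTL7A list. Over all 172 pairs the METTL7A height was above the wild-type height in 126 (73.3%), both METTL7A replicates were above both wild-type replicates in 70 and below both in 3, on scales that may differ. The pair with the closest ranks among the first 10 was also inside EGFR, at chr7:55200359-55202189, with 20.8 and 48.5 in METTL7A cells against 12 and 15.3 in wild-type cells, and ranked 10 and 8 in their lists. The intragenic peak at chr7:55145328-55147578 had 18.4 and 34.7 in METTL7A cells against 10.8 and 10.4 in wild-type cells. Of the 10 highest shared METTL7A peaks, 8 also overlapped a peak of the parental wild-type IgG list, 10 one of the resistant METTL7A MYC-tag list and 10 one of the resistant wild-type MYC-tag list.

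Seen from the wild-type side, the highest shared peaks were partly different. The first, in EGFR at chr7:55177998-55180736, had 7.71 and 40.4 in the METTL7A peak over it and 14.1 and 14.2 in wild-type cells. The METTL7A replicates thus lay on either side of the wild-type pair. The start of CDK4, a cyclin-dependent kinase gene on chromosome 12, was the second, at chr12:58145799-58146522. There the METTL7A replicates had 6.76 and 58.3, and the wild-type replicates 12.8 and 12.4. A narrow peak at chr1:91852809-91853104 had a METTL7A partner with 16.2 and 115 and wild-type heights of 20.6 and 10.2. No gene is named there.

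METTL7A peaks with no wild-type partner were led by positions outside gene starts. The highest, at chr7:55057950-55059451, centred 28 kb before the EGFR start, had 24.2 in both replicates and ranked 5 in the whole list, after 4 mitochondrial peaks. The next, inside VOPP1 at chr7:55602098-55603556, had 20.2 and 24.0. VOPP1 encodes a vesicular protein overexpressed in cancers. Another lay 13.5 kb before the EGFR start at chr7:55072954-55073560, with 23.6 and 19.4. Of the 10 highest, 9 were at 54 to 56 Mb of chromosome 7, among them 2 inside EGFR (chr7:55181385-55181782 with 19.2 and 20.5, and chr7:55269634-55270566 with 17.2 and 16.8) and 1 inside LANCL2 (chr7:55497485-55498185, 27.2 and 17). The exception was chr21:10622502-10622993, with 19.6 and 17.7. None of the 10 was on the start of a gene whose bounds were used here, and all 10 were reproducible. None overlapped a parental IgG peak of either line, 8 overlapped a peak of the resistant METTL7A MYC-tag list and 4 one of the resistant wild-type MYC-tag list.

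Distances between unshared peaks and the other list were measured in the region around EGFR, where peaks of both lists are dense, and no distance expected from that density was set beside them. The median distance from the 85 unshared METTL7A peaks to the nearest wild-type peak was 3574 bp, and 46 of the 85 were within 5 kb of one. For the 32 unshared wild-type peaks the median distance to a METTL7A peak was 5018 bp, and 16 were within 5 kb. The median height of the unshared peaks there was 7.71 in METTL7A cells and 5.63 in wild-type cells.

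Wild-type peaks with no METTL7A partner were led by gene starts. Of the 10 highest, 7 lay within 1 kb of a gene start. The bounds of B4GALNT1, TBK1, RDH10 and RASSF3 were added because of these peaks and, like all gene bounds here, were recalled. Only the EGFR region, with the same 5 genes for both lists, therefore allows an even count. There 0 of 9 unshared METTL7A peaks of the first 10 and 3 of 6 unshared wild-type peaks of the first 10 were at a gene start. The whole region held 85 unshared METTL7A and 32 unshared wild-type peaks. Of its 5 gene starts 0 had a METTL7A peak and 4 a wild-type peak, so most unshared wild-type peaks there were away from these starts. The first was at LANCL2, a gene for a lanthionine synthetase-like protein (chr7:55433138-55434657), with 15.6 and 34.4. It was followed by B4GALNT1, a ganglioside-synthesising glycosyltransferase (chr12:58025479-58027161), with 14.3 and 24.1, and by SEC61G, a subunit of the channel that moves proteins into the endoplasmic reticulum (chr7:54826433-54827149), with 14.1 and 15.4. VSTM2A, a gene for a secreted immunoglobulin-domain protein, had 13.4 and 17.4 at its start (chr7:54609609-54611488), and TBK1, an innate immune kinase, had 12.6 and 23.6 (chr12:64845642-64846409). The starts of RDH10, a retinol dehydrogenase (chr8:74206075-74207721, 10.4 and 15), and RASSF3, a Ras-association domain protein (chr12:65003942-65004885, 8.42 and 21.7), completed the 7. The other 3 of the 10 were 2 peaks in VSTM2A and 1 between SEC61G and EGFR. The EGFR start, outside the first 10 and chosen after its values were seen, had no METTL7A peak and a wild-type peak at chr7:55085323-55088138 with 16.9 and 7.26.

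The same starts had peaks in wild-type IgG. Of the 10 highest unshared wild-type peaks, 9 overlapped a parental wild-type IgG peak, 9 a resistant wild-type MYC-tag peak and 1 a resistant METTL7A MYC-tag peak. SEC61G had no peak at its start in any of the 4 METTL7A lists, and had heights of 14.1 and 20.8 in the MYC-tag and IgG lists of parental wild-type cells and 13 and 14.9 in those of resistant wild-type cells. LANCL2, VSTM2A, B4GALNT1, TBK1, RASSF3 and EGFR were likewise present in all 4 wild-type lists and in none of the 4 METTL7A lists. In wild-type cells these starts thus had peaks with either antibody. RDH10 differed, with 10.4 in the MYC-tag list and 3.68 in the IgG list of parental wild-type cells and no peak in the resistant lists. All these starts were picked for a wild-type peak without a METTL7A partner. Their state in the 2 parental MYC-tag lists was therefore fixed by that choice. The 4 METTL7A lists differ in length, with 70 and 96 peaks for IgG and 2271 and 3165 for MYC-tag, and the part of list length in these absences was not tested. The starts of MYC, CDK4, OS9, STAT3 and ADTRP did carry METTL7A peaks, but only the one at OS9 was reproducible.

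**Figure D3:**
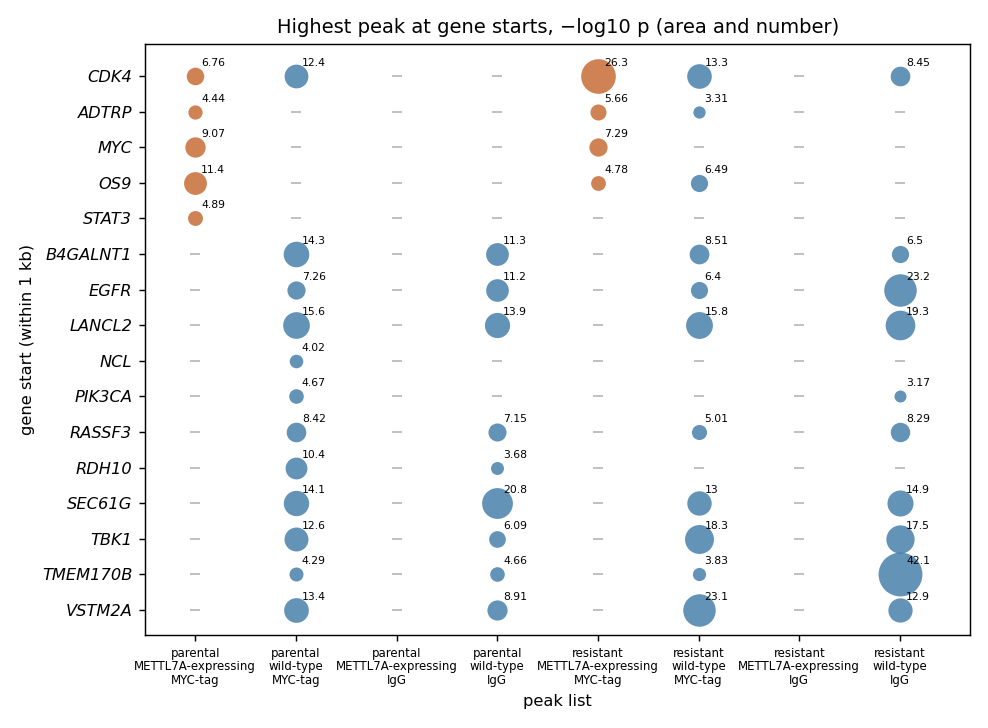
Height of the highest peak within 1 kb of a gene start (number and area of the circle, −log10 p) in the 8 lists (horizontal axis), for the genes of the lists used here that had such a peak in either parental MYC-tag list, and a dash where there was none. SEC61G, LANCL2, VSTM2A, EGFR, B4GALNT1, TBK1, RASSF3 and TMEM170B have a circle in each of the 4 wild-type lists and none in the 4 METTL7A lists.

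Promoter sequences are given for 4 of these starts, EGFR, SEC61G and TBK1 with a wild-type peak alone and CDK4 with a peak in both lists. They run from 250 bases before to 50 after the start, 5′ to 3′ on the gene's own strand, from RefSeq on GRCh38.p14, since no GRCh37 sequence was used here. The E-box CACGTG, which reads the same on both strands, is in capitals. EGFR lies on the plus strand of chromosome 7, SEC61G on the minus strand of chromosome 7, TBK1 on the plus strand of chromosome 12 and CDK4 on the minus strand of chromosome 12.
EGFR: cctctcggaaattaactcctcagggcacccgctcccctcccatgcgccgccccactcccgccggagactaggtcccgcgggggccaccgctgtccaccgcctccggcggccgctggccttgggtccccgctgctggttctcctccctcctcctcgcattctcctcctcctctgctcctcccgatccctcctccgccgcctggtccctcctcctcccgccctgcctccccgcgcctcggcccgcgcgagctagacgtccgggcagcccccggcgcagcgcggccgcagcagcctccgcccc
SEC61G: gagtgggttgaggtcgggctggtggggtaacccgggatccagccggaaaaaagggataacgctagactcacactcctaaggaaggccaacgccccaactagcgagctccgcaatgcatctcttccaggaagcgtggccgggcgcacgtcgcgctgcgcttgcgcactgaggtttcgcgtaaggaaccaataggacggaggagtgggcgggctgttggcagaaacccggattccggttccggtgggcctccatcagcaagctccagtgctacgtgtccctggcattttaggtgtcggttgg
TBK1: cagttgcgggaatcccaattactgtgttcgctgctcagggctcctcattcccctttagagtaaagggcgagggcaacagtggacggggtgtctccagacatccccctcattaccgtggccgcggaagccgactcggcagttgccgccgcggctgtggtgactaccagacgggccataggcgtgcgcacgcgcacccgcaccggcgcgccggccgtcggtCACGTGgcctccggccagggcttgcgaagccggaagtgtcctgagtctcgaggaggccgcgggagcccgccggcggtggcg
CDK4: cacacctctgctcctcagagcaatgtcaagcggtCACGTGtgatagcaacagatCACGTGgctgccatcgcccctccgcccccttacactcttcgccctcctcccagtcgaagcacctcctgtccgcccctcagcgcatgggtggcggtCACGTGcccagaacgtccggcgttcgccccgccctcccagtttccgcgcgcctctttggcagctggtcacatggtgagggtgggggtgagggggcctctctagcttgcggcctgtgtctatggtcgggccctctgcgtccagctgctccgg
CDK4 holds 3 E-boxes in this window, TBK1 1, and EGFR and SEC61G 0. VSTM2A and RASSF3, also starts with a wild-type peak alone, hold 0 as well, though their sequences are not printed. No window was scanned for LANCL2, B4GALNT1 and RDH10, whose starts had a wild-type peak alone too. CDK4 is on the list of known MYC targets counted below, and no other start with a peak in both lists is shown. The E-box occurs at least once in 7.26% of the 35116 promoters of the RefSeq set and at least 3 times in 0.094%. GC content was 75.3% for EGFR, 61.0% for SEC61G, 68.3% for TBK1 and 66.0% for CDK4, against a median of 58.7% over all promoters. A match of letters is a description of the window and does not show binding.

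Genes of known pathways were counted next, without a share over all genes, since no GRCh37 annotation was used here. Within 5 kb of 14 genes of EGFR signalling, 2 had a METTL7A peak (EGFR and STAT3) and 2 a wild-type peak (EGFR and PIK3CA). The peak at the start of STAT3, a transcription factor downstream of growth factor receptors, had 5.70 and 4.89 in METTL7A cells, and the one at PIK3CA, a lipid kinase gene, had 4.67 and 4.71 in wild-type cells. ERBB2, ERBB3, MET and AXL had no peak in either list. Of 14 genes that are MYC or known MYC targets, 3 had a METTL7A peak (MYC, CDK4 and TERT) and 3 a wild-type peak (MYC, NCL and CDK4). The MYC start had a METTL7A peak with 9.36 and 9.07 at chr8:128747248-128748830, which had no wild-type partner. A second METTL7A peak further into MYC, with 5.59 and 6.34, overlapped a wild-type peak with 3.52 and 3.39. NCL, the nucleolin gene, had 4.02 and 5.04 in wild-type cells, and none of these peaks at STAT3, PIK3CA, MYC or NCL was reproducible. The METTL7A peaks at CDK4 and TERT were not reproducible either, whereas the wild-type peak at the CDK4 start was, with 12.8 and 12.4. METTL7A itself had no peak in either list. Its paralogue METTL7B had 1 METTL7A peak of 4.65 and 6.57, also not reproducible, and no wild-type peak.

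On chromosome 12 at 58 to 59 Mb, around B4GALNT1, OS9, AGAP2 and CDK4, lay 22 METTL7A peaks, 13 of them reproducible, and 15 wild-type peaks, 3 of them reproducible. Within the body of B4GALNT1, a peak had 17.3 and 26.7 in METTL7A cells at chr12:58021300-58022110, and its wild-type partner had 6.92 and 25.5. The B4GALNT1 start, by contrast, had a wild-type peak alone. At OS9, a gene for a lectin of endoplasmic reticulum quality control, the start had a METTL7A peak alone, with 11.4 and 30.2 at chr12:58087523-58088841. The genes in this paragraph other than CDK4 were chosen after their values were seen. On chromosome 6 at 11 to 12 Mb, which holds ADTRP and TMEM170B, there were 42 METTL7A peaks, 13 of them reproducible, and 14 wild-type peaks, 0 of them reproducible. By chromosome the METTL7A list was the longer except on chromosomes 10 (14 against 22), 15 (6 against 11) and 22 (12 against 14) and on chromosome 18, with 0 peaks in both lists as used here, and its relative excess was largest on chromosome 14 (190 against 49). On chromosome 14 only 2 of the METTL7A peaks were shared.

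Mitochondrial DNA, the small circular genome that encodes 13 subunits of the respiratory chain, held the tallest METTL7A peaks. The 6 peaks covered 7807 bases of it and touched 9 of the 13 protein genes and both ribosomal RNA genes. The peak inside COX1, a subunit of cytochrome c oxidase (MT:5971-6801), had heights of 109 and 537. Those over TRNF and RNR1 (MT:67-1417, 46.6 and 229), CYTB (MT:14798-15788, 37.4 and 330) and the stretch from ATP6 to ND4 (MT:8982-10783, 24.7 and 179) ranked 2, 3 and 4 in the list. The remaining 2 lay over RNR2, TRNL1 and ND1 (MT:1871-4158, 22.3 and 227) and inside COX2 (MT:7602-8145, 9.19 and 184). All 6 were reproducible, with the second replicate column 4.91 to 20.0 times the first in each. Among nuclear METTL7A peaks that ratio had a median of 1.13 and quartiles of 0.856 and 1.5, and 12 of 2265 were above 4.91. The parental wild-type MYC-tag list, both parental IgG lists and the resistant METTL7A MYC-tag list had 0 mitochondrial peaks. With the MYC-tag antibody, mitochondrial peaks were thus listed in parental METTL7A-expressing cells alone. Which replicate fills which column is not stated. At each peak the greater height is that of 1 replicate, and the lower height was still above 9.

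**Figure D4:**
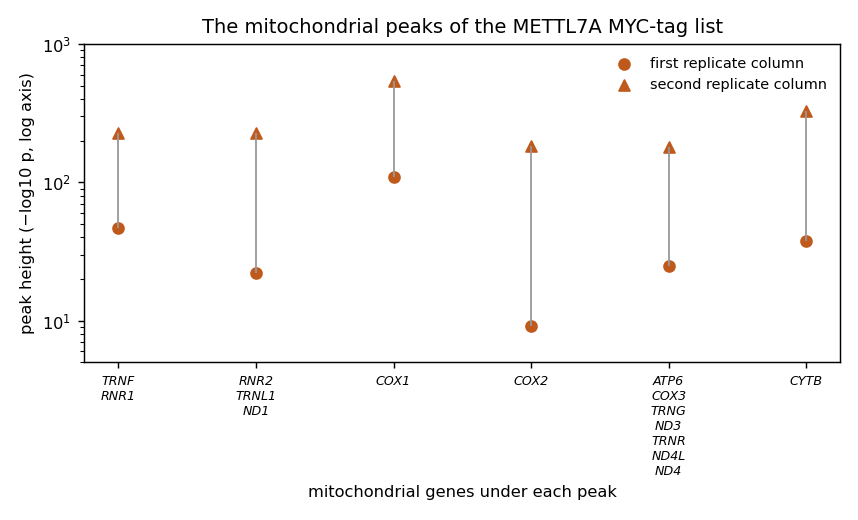
Heights of the 6 mitochondrial peaks of the METTL7A MYC-tag list (vertical log axis, −log10 p) in the first and the second replicate column, joined by a line, with the genes under each peak on the horizontal axis. The second column is higher at every peak, from 4.91 times the first over TRNF and RNR1 to 20.0 times inside COX2.

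Shared positions came back in the other lists more often than unshared ones. Of the 150 shared METTL7A peaks 71.3% (63.4 to 78.4) overlapped a peak of the resistant METTL7A MYC-tag list, 60.0% (51.7 to 67.9) one of the resistant wild-type MYC-tag list, 52.7% (44.4 to 60.9) one of the resistant wild-type IgG list and 32.7% (25.2 to 40.8) one of the parental wild-type IgG list. Of the 2115 unshared METTL7A peaks 16.3% (14.7 to 17.9) were found again in the resistant METTL7A MYC-tag list, 6.95% (5.90 to 8.12) in the resistant wild-type MYC-tag list, 3.92% (3.14 to 4.84) in resistant wild-type IgG and 3.07% (2.38 to 3.90) in parental wild-type IgG. Of the 838 unshared wild-type peaks 5.01% (3.64 to 6.71) were in the resistant METTL7A MYC-tag list, 9.90% (7.97 to 12.1) in the resistant wild-type MYC-tag list and 12.1% (9.93 to 14.5) in parental wild-type IgG. Unshared METTL7A peaks were found most often in the resistant METTL7A MYC-tag list, which is the longest of the 6 with 3165 peaks. Unshared wild-type peaks were found most often in the wild-type lists of either antibody. Both classes were defined by absence from the other parental MYC-tag list. Lower shares in lists of that other genotype may therefore be built in, and no part of genotype or antibody was tested. Most unshared peaks were in none of the other 6 lists, 1620 of 2115 in the METTL7A list (76.6%, 74.7 to 78.4) and 604 of 838 in the wild-type list (72.1%, 68.9 to 75.1). Overlap with a list varies with its length, and the 6 lists differ in length. Shared METTL7A peaks were also wider, with a median of 1056 bp against 678 bp for unshared ones. Of the shared METTL7A peaks 53.3% lay in the EGFR region, against 4.02% of the unshared ones. In the wild-type list these shares were 57.5% and 3.82%. The overlaps were not split by region or by width, and the part of either in them was not tested.

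**Figure D5:**
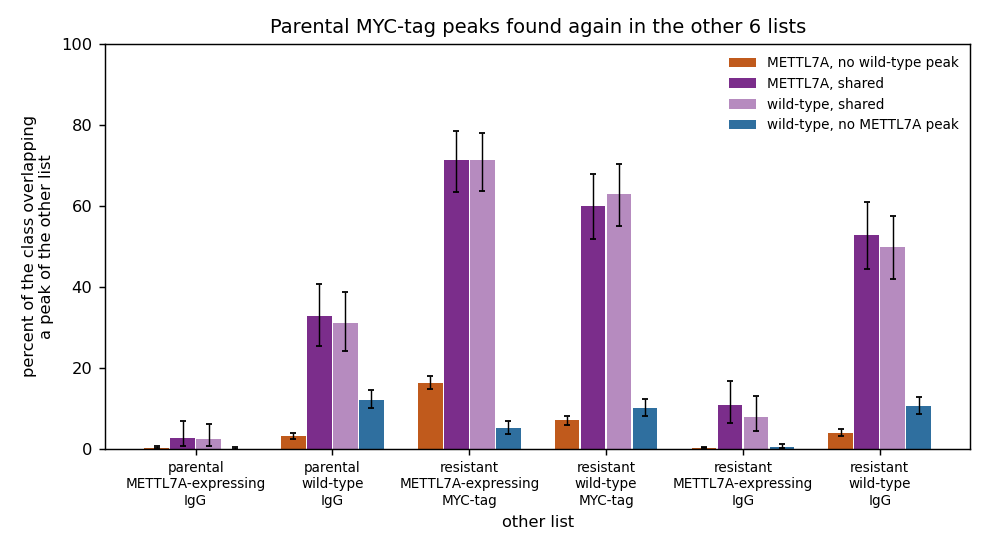
Percent of each class of parental MYC-tag peaks (vertical axis) that overlap a peak of each of the other 6 lists (horizontal axis), with exact 95% binomial intervals. Shared peaks reach 71.3% in the resistant METTL7A MYC-tag list, where unshared METTL7A peaks reach 16.3% and unshared wild-type peaks 5.01%.

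Of the METTL7A nuclear peaks 2046 of 2265 (90.3%, 89.0 to 91.5) were free of overlap with wild-type MYC-tag peaks and with both parental IgG lists, and 80 of the 2046 lay at 54 to 56 Mb of chromosome 7. The parental IgG lists held 70 peaks in METTL7A cells and 1444 in wild-type cells. Few of the 2265 peaks could overlap a list of 70, so this share does not measure specificity for the tag. Among the 139 reproducible METTL7A peaks 70 (50.4%, 41.8 to 58.9) overlapped a wild-type MYC-tag peak of any rank and 10 a reproducible one. Of the 69 without a wild-type partner 38 were in the EGFR region, 51 overlapped a resistant METTL7A MYC-tag peak, 23 a resistant wild-type MYC-tag peak, 13 a resistant wild-type IgG peak and 6 a parental wild-type IgG peak. Parental wild-type IgG peaks overlapped 33 of the 70 reproducible METTL7A peaks that had a wild-type partner, and 65 of all 2115 unshared METTL7A peaks. Among the 26 reproducible wild-type peaks 16 (61.5%, 40.6 to 79.8) overlapped a METTL7A peak. Of the 10 without one, 9 overlapped a parental wild-type IgG peak, 6 a resistant wild-type IgG peak and 1 a resistant METTL7A MYC-tag peak. Parental wild-type IgG peaks overlapped 7 of the 16 with a METTL7A partner, and 101 of all 838 unshared wild-type peaks.

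The lists were also compared at equal length, from the top by height. Among the first 26 peaks 5 overlapped between the lists, among the first 100 of each 27 did, and among the first 1005 120 METTL7A peaks (11.9%) and 135 wild-type peaks (13.4%) did. The EGFR region held 23 of the first 26 METTL7A peaks and 19 of the first 26 wild-type peaks. Of the first 100, 69 METTL7A and 58 wild-type peaks were there. Outside the region many heights were tied: 54.7% of METTL7A peaks and 72.3% of wild-type peaks outside it had a height that 10 or more peaks of the list shared, against 0% of METTL7A and 0.781% of wild-type peaks inside it. The commonest single height, 4.78 in METTL7A cells, was held by 102 peaks, and that in wild-type cells, 3.28, by 150.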

How the data were processed

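Peaks came from ChIP-seq of 2 METTL7A-expressing and 2 wild-type MYC-tag samples. GRCh37, MACS2 2.2.7.1, Bowtie2 2.4.2, bedtools 2.30, deepTools 3.5.1, SAMtools 1.16, FastQC and Trimmomatic are listed without roles, per the submitters' processing notes. Which control entered peak calling is not given in the sources used here. The authors deposited 1 list per group in 20 columns, which holds a −log10 p-value per replicate and a −log10 global IDR. Per-library depth is unknown, and no per-sample values beyond these were used.

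Overlap meant 1 shared base. Mitochondrial peaks were kept apart. The text names every mitochondrial peak and draws on the 10 highest nuclear peaks of each class. Peaks, gene lists and classes were chosen with earlier results of these data known. GRCh37 gene bounds were recalled, not read from a file: all 42 genes had the chromosome, and 36 a length within 10%, of the RefSeq GRCh38.p14 table. A further listed gene is not reported here. Mitochondrial genes were named from that table, taking MT as the revised Cambridge sequence. Overlap code was tested on simulated intervals and against bedtools. Python 3, pandas and scipy were used, with 95% exact binomial intervals and no test.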

Additional observations from a re-analysis of the deposited data

Results flagged for a closer look

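The resistant METTL7A IgG list held 1 mitochondrial peak, inside RNR2 (MT:2768-3166), with a height of 11.6, the lower of 11.6 and 16.2 in its 2 replicates. It was singled out because an IgG list is outside the comparison of MYC-tag peaks, and the resistant wild-type IgG list, its control, had 0 mitochondrial peaks. Of the 6 mitochondrial peaks of the parental METTL7A MYC-tag list, the one over RNR2, TRNL1 and ND1 overlapped it. Mitochondrial peaks thus also occurred in METTL7A cells without the MYC-tag antibody, at 1 position.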

How the results depend on the processing

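Of 44 alternatives over 9 results, 17 left a share within its 95% counting interval, or a ratio or count within 1.5 times. In 27 the value moved past that bound, and 0 reversed one. A share or a count has no direction to reverse, so the 0 is informative for the ratios of peak numbers alone. A global IDR of 0.01 or less gave no ratio, since 80 METTL7A peaks, mitochondrial ones included, and 0 wild-type peaks passed it. The ratio of peak numbers was 5.35 among reproducible peaks and 3.45 at a height of 5 or more. With 1 replicate's column alone the latter ratio was 2.78 to 3.27. The share of METTL7A peaks overlapping a wild-type peak was 4.42% when 50% of both peaks had to overlap, 9.59% at a height of 5, 3.25% without chromosome 7 and 11.9% with the METTL7A list cut to the wild-type length. The share of wild-type peaks overlapping a METTL7A peak was 9.95%, 37.2%, 7.77% and 13.4% under these settings and 38.5% among reproducible peaks. The EGFR region's share of METTL7A peaks was 64.0% among reproducible peaks, 17.3% at a height of 5, 14.7% in the cut list and 10.9% to 12.1% by 1 replicate's height. Its share of wild-type peaks was 69.2%, 38.4% and, by 1 replicate's height, 23.3% to 25.9%. The share of METTL7A peaks in no parental control list was 45.3% among reproducible METTL7A peaks, 81.5% at a height of 5 and 93.8% without chromosome 7. The share of unshared METTL7A peaks found again in the resistant METTL7A MYC-tag list was 10.6% with 50% overlap and 18.2% with a gap of 500 bp. It was 26.8% at a height of 5 and 14.2% without chromosome 7. Why these shares moved was not tested. No paired analysis was possible because the files do not say which replicate fills which column, and no result comes from a test. Depth is unknown, so it could not be matched between lists.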
